A study of Mus musculus with 4 samples.

Results

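The 9 genes Cldn11, Cldn3, Ocln, Tjp1, Gja1, Cdh2, Espn, Cxadr and Jam3 encode junction proteins of the seminiferous epithelium, several of which build the blood-testis barrier. They were taken by name from the deposited table, all 9 were found among its 23980 genes, and all 9 reached an FPKM (fragments scaled to transcript length and library depth) of at least 1 in each of the 4 libraries. The table held polyA(+) RNA of leptotene/zygotene (L/Z) spermatocytes, germ cells at the start of meiosis, which had been sorted by FACS from mice 3 to 4 weeks old. Every animal was an F1 hybrid between C57BL/6J and MSM/Ms, and the study compared genotypes to follow how mutations that release retrotransposons alter the expression of genes near them. One line supplied a Dnmt3L heterozygote and a Dnmt3L KO library, and the other supplied a Pld6 KO and a Pld6 WT library. Dnmt3l encodes a cofactor of de novo DNA methylation and Pld6 encodes a protein of the piRNA pathway.

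Each genotype was represented by 1 library, and how many animals went into a library was not given in the sources used here. The control of the Dnmt3L line still carried 1 mutant allele, so it was a heterozygote and not a wild type, and the controls of the lines therefore differed in genotype as well as in line. The heterozygote was taken as control replicate 1 and Pld6 WT as control replicate 2. No library had a replicate of its own genotype, so intervals given below for a level or a ratio are 95% intervals of the fragment count and cover counting error only.

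Sertoli cells are the somatic cells that line the seminiferous tubule and nurse the germ cells. Their neighbouring membranes are sealed by tight junctions, which stand beside gap junctions and beside actin-rich adherens junctions known as ectoplasmic specializations. Spermatocytes cross this barrier around the L/Z stage, and some of the adhesion proteins sit on germ cells as well as on Sertoli cells. In sorted bulk cells, fewer cells of a type and less RNA per cell cannot be told apart.

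The libraries held 30439943 to 63875934 fragments in genes. All 17 markers of L/Z spermatocytes were detected in each library, with a summed FPKM between 1443 in Dnmt3L KO and 3948 in Pld6 WT. All 20 Sertoli markers were also detected in each library, and their summed FPKM was 10518 in the Dnmt3L heterozygote, 13659.9 in Dnmt3L KO, 875 in Pld6 KO and 379.6 in Pld6 WT. The sorted cells of the Dnmt3L line thus contained far more RNA of Sertoli markers than those of the Pld6 line, in the control as well as in the mutant. Summed over 18 spermatid markers, FPKM was 7264 in the heterozygote, 239 in Pld6 WT, 31.4 in Dnmt3L KO and 14.9 in Pld6 KO. Pld6 itself had an FPKM of 0.334 (14 fragments) in Pld6 KO and 8.55 to 19.5 elsewhere, and Dnmt3l had 0 fragments in Dnmt3L KO and 20 to 101 elsewhere, so the targeted genes matched the labels.

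The 9 genes lie on different chromosomes. In RefSeq on GRCm38.p6, which has the coordinates of mm10, Cldn11 is at chr3:31149920-31164326 (+ strand), Cldn3 at chr5:134986214-134987476 (+), Ocln at chr13:100496504-100552718 (-) and Tjp1 at chr7:65296165-65527850 (-). Gja1 is at chr10:56377300-56390419 (+) and Espn at chr4:152120331-152152414 (-), with Cxadr at chr16:78301226-78359785 (+) and Jam3 at chr9:27097384-27155421 (-). In the GENCODE M21 annotation, genes on the opposite strand overlap Cldn3 (Wbscr25), Cxadr (Btg3, E330011O21Rik and Gm49590), Tjp1 (the pseudogene Gm44795), Cdh2 (Gm15485) and Jam3 (Gm48796). The library kit keeps the strand but the strand setting of the counting was not given in the sources used here, so fragments of these overlaps may not be told apart from those of the member. The antisense transcript Wbscr25 was listed with 989 fragments in the heterozygote, 0 in Dnmt3L KO, 22 in Pld6 KO and 59 in Pld6 WT.

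RefSeq promoter sequence on GRCm38.p6 was at hand for 6 of the 9 genes, with 9 start sites in all. The 250 bases upstream of the start are printed for Cldn11 and Gja1, whose levels spanned the widest range over the libraries, and for Tjp1, whose levels spanned the narrowest. They are given 5′ to 3′ on the strand of the gene, with CpG dinucleotides, the sites of DNA methylation, in capitals, and they cover chr3:31149670-31149919, chr10:56377050-56377299 and chr7:65371245-65371494 (- strand). The Tjp1 start lies within the gene, downstream of its annotated 5′ end. Bases just after the start were found in a GENCODE M21 transcript of the gene for Cldn11 and Tjp1. For Gja1 they were not, so its start was not matched to a transcript, and for Espn they were found at 2 of 3 starts.
Cldn11: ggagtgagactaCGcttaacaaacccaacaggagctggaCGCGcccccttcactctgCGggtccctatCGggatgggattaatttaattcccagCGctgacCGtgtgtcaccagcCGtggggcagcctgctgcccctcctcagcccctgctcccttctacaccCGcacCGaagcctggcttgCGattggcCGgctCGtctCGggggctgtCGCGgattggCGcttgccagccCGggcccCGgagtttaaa
Gja1: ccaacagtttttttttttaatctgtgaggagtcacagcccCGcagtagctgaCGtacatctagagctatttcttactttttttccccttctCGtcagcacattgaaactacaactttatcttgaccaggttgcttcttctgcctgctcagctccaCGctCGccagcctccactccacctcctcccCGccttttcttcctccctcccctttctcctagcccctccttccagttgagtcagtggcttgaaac
Tjp1: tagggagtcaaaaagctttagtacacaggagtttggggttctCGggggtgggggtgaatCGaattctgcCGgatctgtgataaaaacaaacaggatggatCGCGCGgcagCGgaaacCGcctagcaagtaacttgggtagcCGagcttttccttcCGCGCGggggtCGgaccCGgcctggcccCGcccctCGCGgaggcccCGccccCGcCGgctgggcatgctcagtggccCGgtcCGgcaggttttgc
The upstream stretch held 19 CpG in Cldn11, 6 in Gja1 and 22 in Tjp1, against a median of 6 over 32851 promoters of the same length. Its GC content was 63.6% in Cldn11 and 63.2% in Tjp1, above the median of 52.4% over all promoters, and below that median in Gja1. The gene with the widest range and the gene with the narrowest range were therefore alike in CpG. Gja1, which had the library order of Cldn11 and the next widest range, had fewer CpG than either.

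Both strands were searched for motifs of factors known in testis or at general promoters. These were the GC box GGGCGG, the core promoter motif TATAAA, the SOX core given by the letters ACAAT, the GATA factor motif written as AGATAA, the E-box with the sequence CACCTG, and the cAMP response element with the palindrome TGACGTCA. Few matches were found. Cldn11 held none of them. Gja1 held AGATAA on the other strand, starting 135 bases before the start, and 9.99% of all promoters hold this motif. Tjp1 held GGGCGG at 68 and at 50 bases before the start, both on the other strand, and 32.7% of all promoters hold it. A GC box was also present in the single Cldn3 stretch, in both Ocln stretches and in 2 of the 3 Espn stretches, while CACCTG, which 17.2% of all promoters hold, was found at 1 start of Ocln. None of the 9 stretches held TATAAA (12.4% of all promoters), the motif ACAAT (27.7%) or the longer TGACGTCA (1.55%). No motif was thus common to Cldn11 and Gja1 in these windows, and a match in letters is not a site in use.

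The proteins that form the tight junction strands were examined first. Cldn11 encodes claudin 11, the claudin on which the strands of Sertoli cells are built. It reached 274 FPKM in the Dnmt3L heterozygote (29667 fragments), 350.2 in Dnmt3L KO (27722), 19.3 in Pld6 KO (1021) and 8.65 in Pld6 WT (588). Both libraries of the Dnmt3L line stood above both of the Pld6 line, and the lower of the former was 14.2-fold above the higher of the latter. From highest to lowest library the difference was 40.5-fold, the widest of the 9 genes, and no neighbouring libraries in this order had overlapping intervals. In the Dnmt3L KO library Cldn11 ranked 253rd of all genes by FPKM, and in the Pld6 WT library it ranked 8172nd.

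Cldn3 encodes claudin 3, a claudin that joins newly formed Sertoli cell junctions around spermatocytes in transit. Its levels were 9.84 FPKM in the heterozygote (678 fragments), 8.85 in Dnmt3L KO (445), 1.75 in Pld6 KO (59) and 1.27 in Pld6 WT (55). Again the Dnmt3L line was the higher, by at least 5.04-fold between its lower library and the higher Pld6 library, whereas within each line the intervals overlapped. It was the lowest of the 9 genes in both libraries of the Pld6 line.

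Ocln encodes occludin, a membrane protein with 4 passes that lies along the strands. FPKM was 12.7 in the heterozygote (2462 fragments), 25.0 in Dnmt3L KO (3540), 4.74 in Pld6 KO (449) and 2.40 in Pld6 WT (292). The 4 libraries had no overlapping intervals, the mutant was above its own control in both lines, and the whole range was 10.4-fold. Cldn11, Cldn3 and Ocln shared the division by line. Within the lines Cldn11 and Ocln had the same order with no overlap, whereas the intervals of Cldn3 overlapped.

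Tjp1 encodes ZO-1, the plaque protein that ties claudins and occludin to actin, and it behaved differently from these partners. It had 26.5 FPKM in the heterozygote (11492 fragments), 51.3 in Dnmt3L KO (16261), 37.5 in Pld6 KO (7959) and 35.2 in Pld6 WT (9592). The lowest and the highest library were both of the Dnmt3L line, the lines overlapped, and the range was 1.94-fold, the narrowest of the 9 genes. Neighbouring libraries did not overlap in their counting intervals, although Pld6 KO and Pld6 WT differed by 1.06-fold (1.03 to 1.10).

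Gja1 encodes connexin 43, the main gap junction protein of the seminiferous epithelium. Its FPKM was 74.4 in the heterozygote (14032 fragments), 121.8 in Dnmt3L KO (16766), 8.72 in Pld6 KO (803) and 3.41 in Pld6 WT (403). The libraries stood in the order seen for Cldn11, and the whole range of 35.7-fold was next to that of Cldn11 among the 9 genes. Between the lower library of the Dnmt3L line and the higher of the Pld6 line the difference was 8.53-fold.

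Cdh2 and Espn belong to the adherens junction, with Cdh2 encoding N-cadherin and Espn encoding espin, an actin-bundling protein of the ectoplasmic specialization. Espn had 95.3 FPKM in the heterozygote (12493 fragments), 132.1 in Dnmt3L KO (13972), 17.6 in Pld6 KO (997) and 12.2 in Pld6 WT (881). Its order matched that of Gja1 and its range was 10.9-fold. Cdh2, at chr18:16588877-16809246 (-), had 31.7 FPKM in the heterozygote (9141 fragments), 32.1 in Dnmt3L KO (6767), 14.7 in Pld6 KO (2065) and 13.9 in Pld6 WT (2521). For Cdh2 the intervals overlapped within each line, the lines were apart by 2.16-fold or more, and the range was 2.31-fold. The cadherin and the actin bundler of the same junction therefore had ranges of unlike width.

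Cxadr encodes the coxsackievirus and adenovirus receptor and Jam3 encodes junctional adhesion molecule C, both members of the immunoglobulin superfamily that are known in germ cells as well as in Sertoli cells. Cxadr had 6.33 FPKM in the heterozygote (1041 fragments), 7.53 in Dnmt3L KO (1000), 12.8 in Pld6 KO (1134) and 8.69 in Pld6 WT (887). It alone among the 9 genes had both libraries of the Pld6 line above both of the Dnmt3L line, with a range of 2.02-fold. Jam3 had 72.1 FPKM in the heterozygote (8274 fragments), 79.4 in Dnmt3L KO (6656), 41.6 in Pld6 KO (2334) and 39.6 in Pld6 WT (2850). The Dnmt3L line was higher by at least 1.73-fold, the range was 2.01-fold, and the intervals of Pld6 KO and Pld6 WT overlapped.

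**Figure D1:**
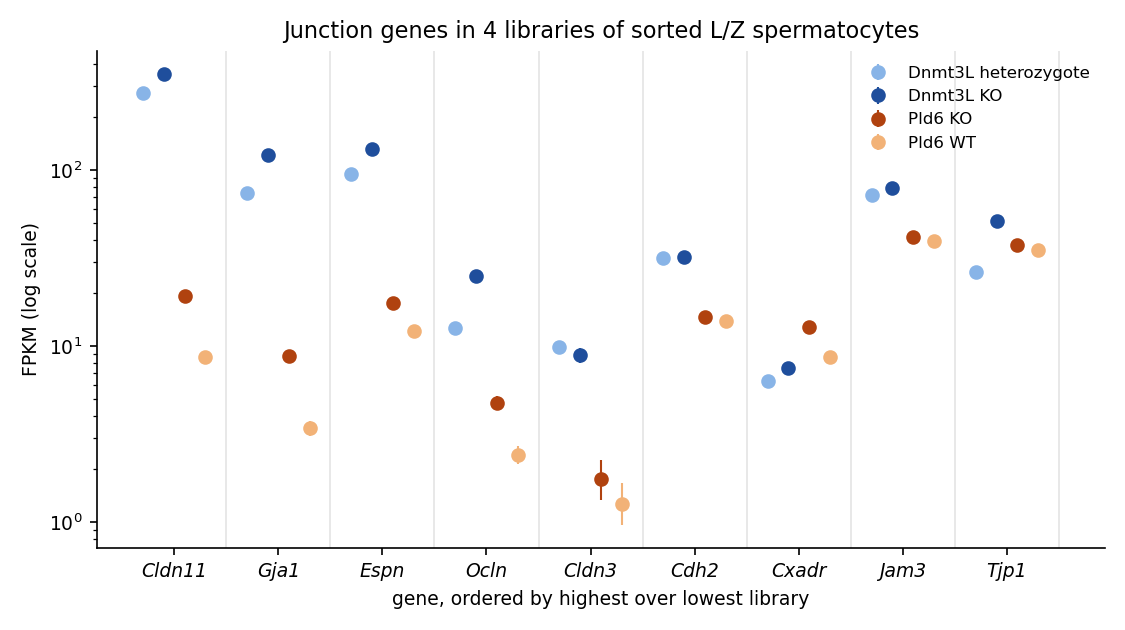
FPKM of each gene (log axis) in the 4 libraries, 1 point per library with its 95% counting interval, which is mostly smaller than the point. Cldn11 spans 40.5-fold and Tjp1 1.94-fold, and Cxadr is the gene whose Pld6 libraries lie above its Dnmt3L libraries.

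By the width of their range the 9 genes thus fell into 5 above 5-fold (Cldn11, Gja1, Espn, Ocln and Cldn3) and 4 below it (Cdh2, Cxadr, Jam3 and Tjp1). In 7 of the 9 both Dnmt3L libraries were above both Pld6 libraries, and 6 of the 9 had the order Dnmt3L KO, heterozygote, Pld6 KO, Pld6 WT. The shares of all genes with a range above 5-fold, with this division and with this order were not taken, so whether these counts are unusual is not known. Of the 27 pairs of neighbouring libraries in the orders of the 9 genes, 5 had overlapping counting intervals. These were both within-line pairs of Cldn3 and of Cdh2 and the Pld6 pair of Jam3. The share of overlapping pairs over all genes was not taken, so whether this count is unusual is not known either. All of these are differences between single libraries and say nothing of the spread between animals of a genotype.

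The controls were compared with each other to learn how far these genes vary without a homozygous mutation. On the scale of log2(FPKM + 1), used for all differences below, the heterozygote was above Pld6 WT by 4.83 for Cldn11, 4.10 for Gja1, 2.87 for Espn, 2.25 for Cldn3, 2.01 for Ocln and 1.13 for Cdh2. These 6 of 9 genes were more than 2-fold higher in the heterozygote, where 11.1% of all genes and 17.6% of the genes with mean FPKM of at least 1 were so. Jam3 was higher by 0.85, while Tjp1 and Cxadr were lower in the heterozygote, with differences of -0.40 each. None of the 9 was more than 2-fold lower, against 3.77% of all genes and 6.1% of those with mean FPKM of at least 1. The median difference of the 9 was 2.01, against 0 over all genes and 0.06 over those with mean FPKM of at least 1. All 20 Sertoli markers were more than 2-fold higher in the heterozygote as well, with a median of 4.07, as were 7 of 8 Leydig markers and 11 of 18 spermatid markers. So were 5 of 10 peritubular and endothelial, 3 of 10 macrophage and 2 of 9 pachytene spermatocyte markers. More than 2-fold lower in the heterozygote were 8 of 17 L/Z markers (median -0.89) and 4 of 13 spermatogonia markers (median -0.35). None of these 2 lists was more than 2-fold higher. The part of these cell types in the difference between the controls was not tested, and line, genotype and sort cannot be told apart in it.

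In the Pld6 line, Pld6 KO was set against Pld6 WT. Gja1 was higher in the mutant by 1.14 on the log2 scale, a ratio of FPKM of 2.56 (2.27 to 2.89), and Cldn11 by 1.07, a ratio of 2.23 (2.01 to 2.47). These were the 2 of 9 genes more than 2-fold higher, where the share was 4.69% of all genes and 7.41% of the genes with mean FPKM of at least 1. Ocln followed with 0.76 and a ratio of 1.98 (1.70 to 2.30), then Cxadr with 0.51 and Espn with 0.50. Cldn3 differed by 0.28, and its ratio of 1.38 (0.938 to 2.03) was within counting error, as were those of Cdh2 (0.07) and Jam3 (0.07), while Tjp1 differed by 0.09. All 9 differences were above 0, as were 50.5% of the genes with mean FPKM of at least 1. None of the 9 was more than 2-fold lower (6.46% of all genes and 9.95% of those with mean FPKM of at least 1 were). The median of the 9 was 0.50, against 0 over all genes and 0.0067 over those with mean FPKM of at least 1.

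Markers of other cells were also higher in Pld6 KO than in Pld6 WT. The mean log2 level of the Sertoli list was higher by 1.10, with 11 of its 20 genes more than 2-fold higher and none more than 2-fold lower. More than 2-fold higher, too, were 8 of 8 Leydig markers, 8 of 10 peritubular and endothelial markers and 4 of 10 macrophage markers. More than 2-fold lower were 4 of 17 L/Z markers, 8 of 9 pachytene spermatocyte markers (median -2.26) and 17 of 18 spermatid markers (median -2.94). Set against the Sertoli list, 8 of the 9 junction genes differed by less than the mean of the markers and Gja1 by 0.04 more. The part of these cells in the differences was not tested.

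In the Dnmt3L line, Dnmt3L KO was set against the heterozygote. Tjp1 was higher in the mutant by 0.93, a ratio of 1.94 (1.89 to 1.99), and Ocln by 0.92, a ratio of 1.97 (1.87 to 2.07), which left both just inside the 2-fold limit. Gja1 followed with 0.70, Espn with 0.47, Cldn11 with 0.35, Cxadr with 0.22 and Jam3 with 0.14. Cdh2 (0.02) and Cldn3 (-0.14) were within counting error, with ratios of 1.01 (0.982 to 1.05) and 0.899 (0.796 to 1.01). None of the 9 genes was more than 2-fold higher, where 3.0% of all genes and 4.61% of the genes with mean FPKM of at least 1 were, and none was more than 2-fold lower, where the shares were 8.22% and 12.0%. Of the 9 differences 8 were above 0, as were 54.1% of all genes with a mean FPKM of 1 or more, and the median of the 9 was 0.35, against 0.06 over those genes and 0 over all genes. The Sertoli list was higher by 0.48 on average with 1 of 20 genes past 2-fold. The Leydig list was higher by 0.42 on average (3 of 8 genes more than 2-fold higher, none lower, median -0.02) and the macrophage list by 0.73 (2 of 10 higher, none lower). The peritubular and endothelial list differed by -0.63 (none of 10 higher, 3 lower). More than 2-fold lower were also 3 of 17 L/Z markers, 8 of 9 pachytene spermatocyte markers (median -3.31) and 17 of 18 spermatid markers (median -4.54). Tjp1 and Ocln exceeded the mean of the Sertoli markers by 0.45 each and Gja1 by 0.22, and the other 6 were below it. The part of these cells in the differences was not tested.

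**Figure D2:**
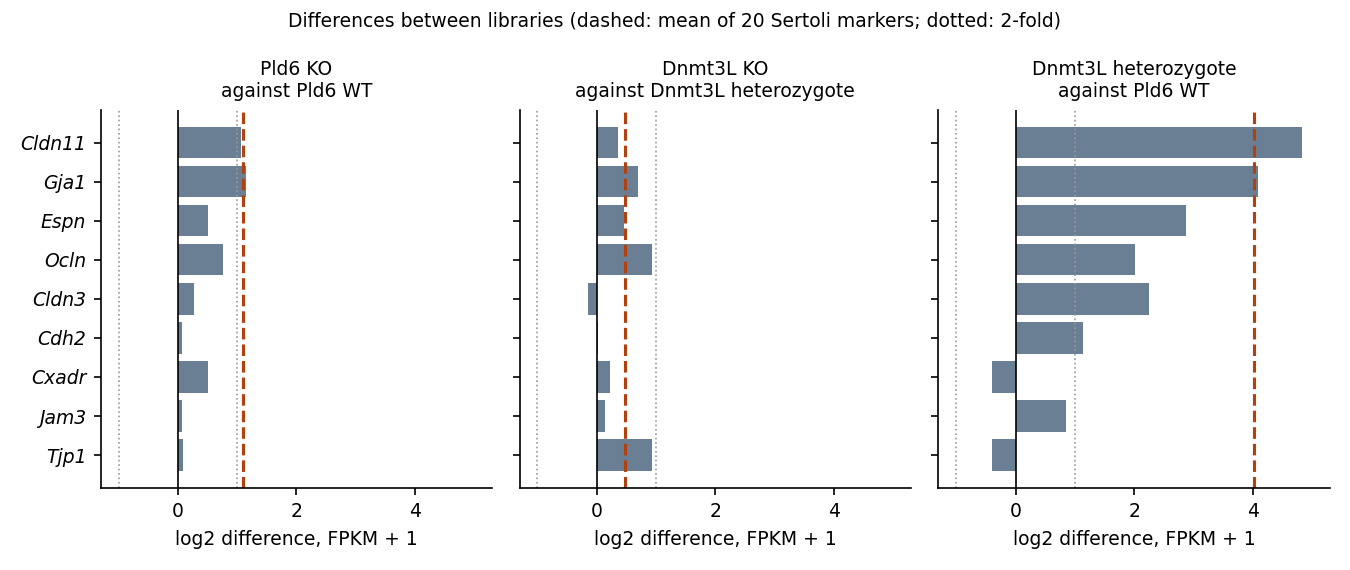
Difference of log2(FPKM + 1) for each gene in the 3 comparisons of single libraries, as bars, with the mean difference of the 20 Sertoli markers (dashed) and the 2-fold limits (dotted). Cldn11 and Gja1 lie near the dashed line of 4.02 between the controls, and Tjp1 and Cxadr lie at -0.40.

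Neither mutant library went beyond both controls by more than 2-fold for any of the 9 genes. Over all genes, 1.04% were more than 2-fold above and 5.41% more than 2-fold below both controls in Pld6 KO, and 2.14% and 5.78% in Dnmt3L KO. In Pld6 KO, 7 of the 9 genes lay between the controls, and Tjp1 and Cxadr lay above both. In Dnmt3L KO, 7 lay above both controls, and Cldn3 and Cxadr lay between them. These positions carry no 2-fold limit, so the shares above are no background for them. The matching shares over all genes were not taken.

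The mutants were then tested against both controls with edgeR's quasi-likelihood test on the fragments, over 18657 genes, with 1 residual degree of freedom for the whole fit. No gene was called at an adjusted p of 0.05 in Pld6 KO (0.0% of those tested) or in Dnmt3L KO (0.0%), and so none of the 9 was. At an unadjusted p under 0.05 there were 1485 genes in Pld6 KO and 1643 in Dnmt3L KO, none of them among the 9. The largest estimate in Pld6 KO was that of Cldn11, -2.91 ± 1.85 (SE) on the log2 scale with an edgeR adjusted p of 0.925, and Gja1 had -2.20 ± 1.65, with 0.967 as its adjusted p from edgeR. The largest estimate in Dnmt3L KO was that of Ocln, 1.72 ± 0.997 (SE), and edgeR gave it an adjusted p of 0.786. In Pld6 KO 7 of the 9 estimates were negative, although all 9 genes were higher than in Pld6 WT, since the other control was the heterozygote with its higher levels. Left with Pld6 WT as the only control, these 7 were positive, from 0.0035 for Jam3 to 1.29 for Gja1. The sign of the Pld6 KO estimates thus turned with the control used, and a p that misses the threshold does not show that the levels were equal. DESeq2 called 972 genes in Pld6 KO and 936 in Dnmt3L KO but none of the 9, with Cldn11 in Pld6 KO closest at a DESeq2 adjusted p of 0.278.

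In a fit chosen after the data were seen, both mutants were taken as 1 group and set against their controls with the line as a block, so that each mutant was read against its own control, with 1 residual degree of freedom. edgeR then called 1189 of 17686 genes (6.72%), none of them among the 9, and without the block it called none (0.0%), with 1676 genes at an unadjusted p under 0.05. With the block all 9 estimates were above 0, from 0.02 for Cdh2 to 0.996 for Gja1. Gja1 came closest with an edgeR adjusted p of 0.0788, followed by Ocln (log2 estimate 0.95, edgeR adjusted p of 0.105) and Cldn11 (0.72, edgeR adjusted p of 0.230). These 3 had an unadjusted edgeR p under 0.05, as did 19.4% of all genes tested, and this fit cannot tell the mutations apart. Its 1 residual degree of freedom reflects how far the mutant-to-control differences of the lines disagreed. The p-values of this fit therefore do not measure the spread between animals of a genotype.

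The 9 genes were next read beside the Sertoli markers in each library, as log2(FPKM + 1) of the gene minus the mean of the 20 markers, which was 6.93 in the heterozygote, 7.41 in Dnmt3L KO, 4.01 in Pld6 KO and 2.90 in Pld6 WT. Gja1 kept nearly the same distance, at -0.69, -0.47, -0.73 and -0.76 in these libraries. Cldn11 was above the markers by 1.17, 1.05, 0.33 and 0.37, and Espn was at -0.34, -0.35, 0.21 and 0.81. Over the 4 libraries the distance moved by 0.30 for Gja1, 0.84 for Cldn11 and 1.17 for Espn, although their own levels moved by 4.80, 5.19 and 3.34.

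The other genes moved more relative to the markers. Ocln went from -3.15 in the heterozygote to -1.14 in Pld6 WT and Cldn3 from -4.11 in Dnmt3L KO to -1.72 in Pld6 WT, ranges of 2.01 and 2.39. Cdh2, Jam3, Tjp1 and Cxadr had ranges of 3.35, 3.52, 4.42 and 4.69, each wider than the range of the gene's own level, which was between 0.91 and 1.15. For Jam3 and Tjp1 the distance passed from below 0 in the Dnmt3L line to 2.44 and 2.28 in Pld6 WT. Cldn3 also moved more relative to the markers (2.39) than its own level did (2.25), so that this held for 5 of the 9 genes, and for Gja1, Cldn11, Espn and Ocln the distance moved less than the level. The members and markers share the 4 libraries and their depth, and this is a description with no test.

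**Figure D3:**
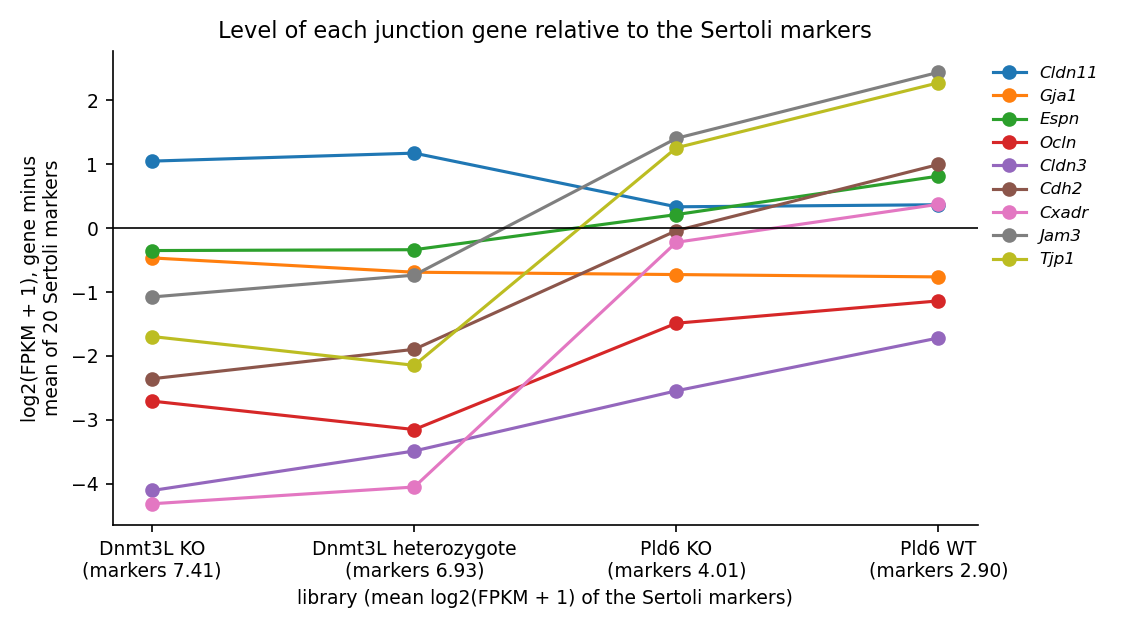
Log2(FPKM + 1) of each gene minus the mean of 20 Sertoli markers in the same library, with libraries ordered by that mean (given under each name). The line of Gja1 is close to flat, with a range of 0.30, and that of Cxadr has a range of 4.69.

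The make-up of the junction transcripts differed with the line. Together the 9 genes took 0.140% of all fragments in the heterozygote, 0.187% in Dnmt3L KO, 0.0553% in Pld6 KO and 0.0446% in Pld6 WT. Of their summed FPKM, Cldn11 made up 45.4% and 43.3% in the heterozygote and Dnmt3L KO and 12.2% and 6.90% in Pld6 KO and Pld6 WT. Jam3 (26.2% and 31.6%) and Tjp1 (23.6% and 28.1%) led in Pld6 KO and Pld6 WT, where they stood first in place of Cldn11 and Espn. Gja1 had rank 3 in the Dnmt3L line, with 12.4% and 15.1%, and rank 7 in the Pld6 line, with 5.50% and 2.72%. The libraries with the lower levels of Sertoli markers thus held a junction set led by an immunoglobulin-type adhesion gene and a plaque gene, and those with the higher levels one led by a claudin and an actin bundler.

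**Figure D4:**
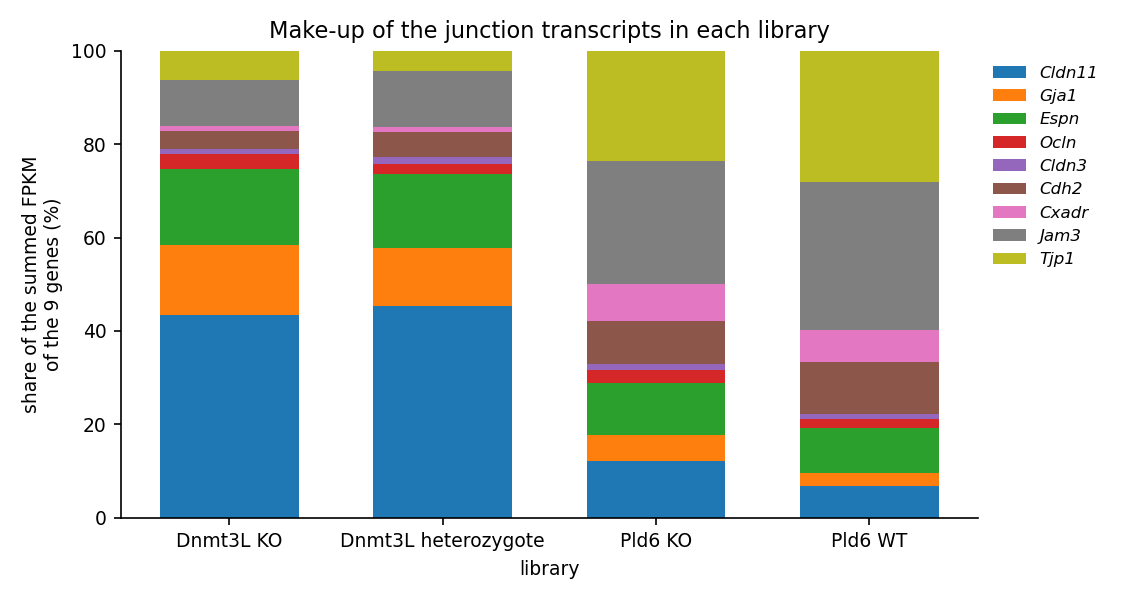
Share of each gene in the summed FPKM of the 9 genes (stacked bars to 100%), by library. Cldn11 takes 43.3% to 45.4% in the Dnmt3L line and 6.90% to 12.2% in the Pld6 line.

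To place each gene among the rest, the 3 genes with the closest centred profile of log2(FPKM + 1) over the 4 libraries were found (Euclidean distance, 14415 other genes with mean FPKM of at least 1). Closest to Cldn11 were 4933402E13Rik (distance 0.0953), Clec12b (0.183) and Clu (0.241), the last of which is the Sertoli marker clusterin. Closest to Gja1 were Gpm6b (0.122), Sept6 (0.139) and 4930486L24Rik (0.150).

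For the remaining members the closest genes were Enpp5, Efhd2 and Fam84a for Espn, Iffo1, Il10rb and Tbc1d8 for Ocln, and Snx21, Dnajc12 and Cuzd1 for Cldn3. They were Brsk1, Pdcl3 and Syngr2 for Cdh2, Snurf, App and Gcdh for Jam3, Lpin2, Nudt10 and Tab3 for Tjp1, and Ccdc120, Pygo1 and Egln3 for Cxadr. With 4 points a profile is a coarse measure, and no member was among the closest genes of another. Of the 27, 1 was in the Sertoli list, which holds 20 of the 14415 genes compared. Within a distance of 1 lay 87 genes for Cldn11 and 188 for Gja1, against 4941 for Jam3, 6960 for Tjp1 and 7452 for Cxadr. Where so many genes are this close, the nearest 3 are not particular to the member.

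The other genes of the same junctions were examined through 5 lists. Of 20 other claudins, 4 had a mean FPKM of at least 1. Cldn12 had 9.02 FPKM in the heterozygote, 12.5 in Dnmt3L KO, 18.0 in Pld6 KO and 12.9 in Pld6 WT. Cldn7, a claudin of epithelia, had 10.2 in the heterozygote, 14.0 in Dnmt3L KO, 3.29 in Pld6 KO and 2.74 in Pld6 WT, a division by line as in Cldn3. Cldn5, best known from endothelium, had 14.2, 2.78, 19.9 and 8.80 in the same order, so that it was more than 2-fold higher in Pld6 KO and more than 2-fold lower in Dnmt3L KO than in the control of its line. Cldn20 was listed at 0 in the heterozygote and in Pld6 KO. Cldn11 was thus the claudin with the highest FPKM in both Dnmt3L libraries, while Cldn5 (19.9, against 19.3 for Cldn11) was so in Pld6 KO and Cldn12 in Pld6 WT.

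Of 28 other tight junction proteins, 5 were more than 2-fold higher and 1 lower in Pld6 KO than in Pld6 WT, and 2 were higher and 1 lower in Dnmt3L KO than in the heterozygote. Lsr, the lipoprotein receptor found at tricellular junctions, had 86.7 FPKM in the heterozygote, 117.6 in Dnmt3L KO, 14.0 in Pld6 KO and 5.69 in Pld6 WT. F11r, which encodes junctional adhesion molecule A, had 52.4, 89.7, 28.6 and 13.5. Lsr and F11r had the order of Cldn11, with a difference between controls of 3.71 for Lsr and 1.88 for F11r. Ybx3, a Y-box protein that binds ZO-1 and is also abundant in male germ cells, had 162.7, 34.1, 31.2 and 106.0, and was more than 2-fold below both controls in both mutants. Sympk, which also acts in RNA 3′ end formation, had 37.0 to 57.9.

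Among 22 other gap junction genes, 2 were more than 2-fold higher in Pld6 KO than in Pld6 WT and none lower, and in Dnmt3L KO none was higher and 1 lower. Gja6, a connexin gene closely related to Gja1, had 31.6 FPKM in the heterozygote, 31.5 in Dnmt3L KO, 2.52 in Pld6 KO and 0.731 in Pld6 WT. Gjc1, connexin 45, had 25.9, 27.2, 93.1 and 48.0, and Panx1, a pannexin, had 7.52, 7.85, 20.2 and 10.6. Gja6 was divided by line as Gja1 was, whereas Gjc1 and Panx1 had the opposite division. Gja4, connexin 37, known from endothelium, had 3.39, 1.32, 6.99 and 1.95.

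In the list of 30 adherens junction and ectoplasmic specialization genes, 8 were more than 2-fold higher and none lower in Pld6 KO than in Pld6 WT, with a median difference of 0.63. In Dnmt3L KO against the heterozygote 2 were higher and 1 lower, with a median of 0.29, and between the controls 10 were higher and 1 lower in the heterozygote, with a median of 0.48. Vim, the intermediate filament protein of Sertoli and other somatic cells, had 228 FPKM in the heterozygote, 319 in Dnmt3L KO, 107 in Pld6 KO and 28.8 in Pld6 WT. The catenin gene Ctnnb1 had 169 to 209, and the integrin-linked kinase gene Ilk had 83.6 to 110.5. Itgb1, integrin beta 1, had 78.1 to 146.8. Vim thus had a wide range over the libraries, as Cldn11 did, and Ctnnb1 and Ilk had narrow ones, as Tjp1 did.

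Of 14 desmosome genes, 3 had a mean FPKM of at least 1, and none was past 2-fold in any of the 3 comparisons. Pkp2, Pkp4 and Jup, which encode plaque proteins, had 5.57 to 11.4, 5.59 to 9.65 and 3.97 to 5.69 FPKM. Over the 114 genes of the 5 lists together, 14.0% were more than 2-fold higher and 1.75% lower in Pld6 KO than in Pld6 WT. Beside them stood 4.69% and 6.46% of all genes, and 7.41% and 9.95% of the genes with mean FPKM of at least 1. In Dnmt3L KO against the heterozygote the shares were 4.39% and 4.39%. There they stood beside 3.0% and 8.22% of all genes, and 4.61% and 12.0% of those with mean FPKM of at least 1. In the heterozygote against Pld6 WT they were 16.7% and 3.51%, beside 11.1% and 3.77% of all genes. Of the genes with mean FPKM of at least 1, 17.6% were higher and 6.1% lower there. The same background shares apply to the counts of each list above. edgeR called none of the listed genes it tested in either mutant, and the lists reached down to an edgeR adjusted p of 0.330 for Pld6 KO and 0.384 for Dnmt3L KO.

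**Figure D5:**
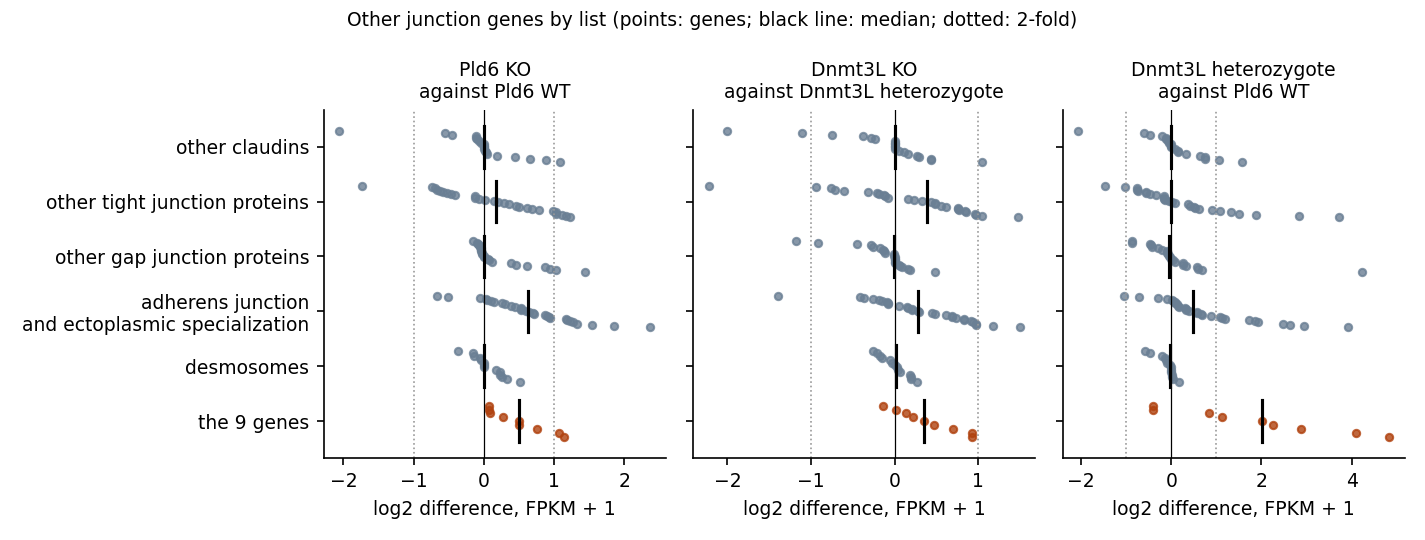
Difference of log2(FPKM + 1) for every gene of the 5 junction lists and for the 9 genes (points), with the median of each list (black line) and the 2-fold limits (dotted), in the 3 comparisons of single libraries. The median of the 9 genes is 0.50, 0.35 and 2.01, and that of the desmosome list is close to 0 in each.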

How the data were processed

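Libraries of polyA(+) RNA were made with a stranded TruSeq mRNA kit and read as 50-base single ends. According to the submitters' processing notes, TopHat and Cuffdiff were used with mm10, in versions not given in the sources used here. The deposited table gives, per gene and library, the estimated count of fragments before scaling and the FPKM that the authors' tool derived from it. The share of whole numbers among the estimated counts was 97.3% to 97.4%. The tool had marked 31 values in 28 genes as failed, none of them in the 9 genes. A further 2 columns of scaled fragments were not used.

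Differences were taken on log2(FPKM + 1), with a 2-fold limit and no test where 1 library faced 1 library. FPKM of a gene carries the tool's estimate of transcript length, and the FPKM ratio differed from the scaled fragment ratio by -0.16 and -0.15 (log2) for Cxadr in the Pld6 and the Dnmt3L line and for Espn by -0.14 in the Dnmt3L line and -0.18 between the controls. Exact Poisson intervals (95%) were used for levels and exact binomial intervals for ratios, and both cover counting error only. Each mutant was tested against both controls with edgeR 4.0.16 (R 4.3.3) on counts rounded to whole numbers, with TMM, filterByExpr, the quasi-likelihood test and Benjamini-Hochberg adjustment over all genes tested. SE was the log2 estimate divided by the square root of the F statistic. The fit had 1 residual degree of freedom from 2 controls of unlike genotype, and a term for line would have left 0, so a line block was fitted only with both mutants as 1 group. The common dispersion was 0.347. DESeq2 1.42.0, no TMM, no filter, another pseudocount, other limits and other controls were tried as alternatives. Figures were drawn with matplotlib 3.10.9.

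The 9 genes, the 5 junction lists the 8 marker lists and the motifs were chosen with earlier results of these data known. Named in each list were the 4 genes with the highest mean FPKM and any gene called by edgeR, and for each member the 3 nearest profiles. Genes that overlap a member were named for their position. Of the 11 listed macrophage markers 10 were in the table under their listed symbols. Promoters came from RefSeq on GRCm38.p6 and were matched by symbol.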

Additional observations from a re-analysis of the deposited data

Results flagged for a closer look

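In 6 of the 29 junction genes compared, the mutant differed from the control of its line in opposite directions in the 2 lines. The 29 were the 9 genes and the 4 with the highest mean FPKM in each junction list, not all listed genes. Each genotype had 1 library, no minimum difference was set, and the difference between lines was not tested. The share of all genes with opposite directions was not taken, so whether this count is unusual is not known. Among the 9 genes the directions were opposite for Cldn3. Its log2 difference was 0.28 in Pld6 KO against Pld6 WT and -0.14 in Dnmt3L KO against the heterozygote, both within counting error. Cldn5 differed by 1.09 and -2.01 and Gja4 by 1.44 and -0.92, in the same order. Cldn20 differed by -2.06 and 1.04, with 0 fragments in Pld6 KO and in the heterozygote. For Gja6 the differences were 1.02 and -0.0058, the latter being close to no difference, and for Ilk they were 0.045 and -0.15. The peritubular and endothelial list, with a mean difference of 1.52 and -0.63, was also of opposite sign in the 2 lines, and the part of those cells in these values was not tested.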

How the results depend on the processing

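Counts among the 9 genes changed mainly with the control. No shares over all genes were set beside the counts for other controls, other limits or 1 control left out. Whether those counts are unusual is therefore not known. Against the control of the other line, Pld6 KO had 0 genes more than 2-fold higher and 6 lower, and Dnmt3L KO had 6 higher. The log2 difference of Cldn11 in Pld6 KO then became -3.76 and that of Gja1 -2.96. A 3-fold limit left 0 genes higher in Pld6 KO against Pld6 WT. A 1.5-fold limit gave 3 higher in Dnmt3L KO against the heterozygote and 2 above both controls in Dnmt3L KO. Leaving out 1 control in turn gave 0 to 2 genes above and 0 to 6 below the remaining control in Pld6 KO, and 0 to 6 above in Dnmt3L KO. It also reversed edgeR estimates, given with no test since no residual degree of freedom is left. In Pld6 KO they ran, over both omissions, from -3.97 to 1.09 for Cldn11, -2.63 to 0.39 for Cldn3, -1.56 to 0.91 for Ocln, -3.23 to 1.29 for Gja1, -1.25 to 0.0038 for Cdh2, -2.75 to 0.47 for Espn and -0.93 to 0.0035 for Jam3, each positive without control replicate 1. In Dnmt3L KO they ran from -0.26 to 2.76 for Cldn3 and -0.084 to 1.17 for Cdh2, negative without control replicate 2, and from -0.080 to 0.29 for Cxadr, negative without control replicate 1. A pseudocount of 0.1, TMM scaling and a minimum mean FPKM of 1 kept every count among the 9 within 1.5 times its value, and DESeq2, no TMM and no filter gave 0 calls among the 9. Without the filter edgeR called 437 genes in Pld6 KO and 429 in Dnmt3L KO, against 0 with it, and DESeq2 called 972 and 936. The labels carry no replicate numbers. No paired analysis was possible because each genotype had 1 library, for either mutant taken alone. With both mutants as 1 group, a replicate block by line, added after seeing the data, left 0 calls among the 9, as without the block, while calls over all genes went from 0 to 1189. Cldn3 rests on 55 to 59 fragments in the Pld6 line, which limits its ratio to 0.938 to 2.03.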

Other observations

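Beside junction genes, the 4 libraries differed in cell type markers, which are given here for single genes of the lists counted above. Insl3, the Leydig cell hormone, had 202 FPKM in the heterozygote, 198 in Dnmt3L KO, 142 in Pld6 KO and 14.7 in Pld6 WT. For this gene Pld6 WT alone was low, and Cyp11a1, Cyp17a1 and Hsd17b3 had a similar course. The other Leydig markers did not. Hsd3b1 was low in Pld6 KO as well. Hsd3b6, Star and Lhcgr were lower in the heterozygote (5.64, 3.46 and 1.57 FPKM) than in either mutant. Acta2, the smooth muscle actin of peritubular cells, had 359.5 in the heterozygote, 206.5 in Dnmt3L KO, 348.6 in Pld6 KO and 75.2 in Pld6 WT. The macrophage gene Lyz2 had 18.4, 43.8, 12.6 and 2.82. Among 13 spermatogonia markers Kit had 16.0, 24.8, 86.4 and 40.4, which was not the course of the list as a whole. The median difference of the 13 was -0.02 in Pld6 KO against Pld6 WT, with 3 more than 2-fold higher and none lower. In Dnmt3L KO against the heterozygote it was 0.33, with 1 higher and 2 lower. Of the 4 libraries Pld6 WT had the lowest summed FPKM in each of the Sertoli, Leydig, peritubular and endothelial, and macrophage lists, and the highest in the L/Z list.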
